A study of Mus musculus with 9 samples.

Results

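The amino acid and neurotransmitter transporters were the protein-coding genes of the deposited table whose mouse symbol starts with Slc6a, Slc7a, Slc17a or Slc38a and a number, together with Slc3a2 and Slc32a1. The rule found 59 of the 55704 genes of the table. Identifiers were matched to symbols with the GENCODE vM39 annotation of GRCm39, which is also the source of every position given here. The pattern also took in Slc7a6os, which does not encode a transporter, and Slc6a21, and both are listed apart but counted among the members. The non-coding gene Slc6a19os was left out. Neural stem cells (NSCs) came from the subventricular zone of C57BL/6 mice aged 8 to 9 weeks, a pool of 2 female and 2 male mice per isolation, and were passaged with bFGF and EGF. After 16 to 18 hours as an adherent culture, NSCs were either collected at day 0 (bFGF/EGF) or moved to bFGF with BMP4 (bFGF/BMP4) or to BMP4 without bFGF (BMP4) and collected at day 6. Each factor was used at 20 ng/ml, no genetic change was named for any group, and all media were DMEM/F12 with a B27 supplement, which lacked vitamin A in the bFGF/EGF medium and was plain B27 in both day 6 media. RNA sequencing gave 3 libraries per group. The submitters called these biological replicas, but no label ties a library to an isolation, so the p-values measure the spread between these libraries, which may be partly technical. BMP4 and bFGF/BMP4 were both collected at day 6 and differ in the presence of bFGF. Both comparisons with bFGF/EGF use the same 3 control libraries and set day 6 against day 0, so time in culture, the change of factors and the change of B27 supplement cannot be told apart there.

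Amino acid transporters of the plasma membrane decide which amino acids a cell can take up, exchange or release. The SLC6 carriers use the sodium and chloride gradients to move GABA, monoamines, glycine, taurine and creatine, the SLC7 family holds the cationic amino acid carriers and the light chains that need a heavy chain such as Slc3a2 to reach the cell surface, and the SLC38 carriers move glutamine and other small neutral amino acids. Of the SLC17 carriers, Slc17a1 to Slc17a4 are type I phosphate and urate carriers. The other SLC17 carriers and Slc32a1 load glutamate, nucleotides or GABA into vesicles or work in lysosomes. In the brain several of these transporter genes are known for being used mainly by neurons or mainly by glia.

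The promoters of 5 transporter genes are shown because these genes carried the largest differences of BMP4 against bFGF/EGF (Slc7a2 and Slc6a8 upwards, Slc6a11 and Slc7a1 downwards) or hold the motif searched for more than once (Slc7a11). Each is the 250 bases before the annotated start of the canonical transcript in GRCm39, 5′ to 3′ on the strand of the gene, and capitals mark a match to a motif.
Slc7a2 promoter (chr8:41315183-41315432, plus strand): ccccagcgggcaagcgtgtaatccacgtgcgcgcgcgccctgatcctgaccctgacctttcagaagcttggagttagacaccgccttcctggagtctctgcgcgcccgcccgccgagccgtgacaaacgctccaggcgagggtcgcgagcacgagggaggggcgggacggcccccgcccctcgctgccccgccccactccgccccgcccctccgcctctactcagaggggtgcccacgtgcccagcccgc
Slc6a8 promoter (chrX:72716478-72716727, plus strand): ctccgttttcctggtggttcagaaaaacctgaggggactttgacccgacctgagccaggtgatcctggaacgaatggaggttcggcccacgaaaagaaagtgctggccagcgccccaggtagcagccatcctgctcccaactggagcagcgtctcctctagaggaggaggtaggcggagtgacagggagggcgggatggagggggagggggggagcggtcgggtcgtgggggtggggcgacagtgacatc
Slc6a11 promoter (chr6:114107950-114108199, plus strand): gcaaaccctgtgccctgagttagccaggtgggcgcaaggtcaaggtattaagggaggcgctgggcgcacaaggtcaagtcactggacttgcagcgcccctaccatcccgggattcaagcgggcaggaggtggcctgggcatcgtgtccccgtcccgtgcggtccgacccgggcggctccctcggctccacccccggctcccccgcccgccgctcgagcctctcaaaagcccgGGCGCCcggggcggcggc
Slc7a1 promoter (chr5:148336849-148337098, minus strand): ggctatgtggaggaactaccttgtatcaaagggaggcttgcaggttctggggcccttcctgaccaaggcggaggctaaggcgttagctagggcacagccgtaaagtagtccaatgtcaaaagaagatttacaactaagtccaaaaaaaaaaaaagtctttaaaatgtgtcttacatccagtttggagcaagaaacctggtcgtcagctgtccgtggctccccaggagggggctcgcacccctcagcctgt
Slc7a11 promoter (chr3:50398064-50398313, minus strand): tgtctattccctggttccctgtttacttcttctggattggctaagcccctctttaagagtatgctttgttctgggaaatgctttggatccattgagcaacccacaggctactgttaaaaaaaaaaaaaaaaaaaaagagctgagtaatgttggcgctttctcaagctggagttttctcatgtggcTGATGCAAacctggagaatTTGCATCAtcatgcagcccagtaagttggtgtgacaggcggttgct

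The motifs searched on both strands were TGATGNAA, the core of the amino acid response element, GGCGCC, a GC-rich sequence to which BMP-regulated SMAD proteins are known to bind, and GTCTAGAC, the palindromic SMAD element. TGATGNAA was found in 734 of 21614 promoters of protein-coding genes of the same length (3.40%), and among the tested transporters in Slc7a11 and Slc38a1. In Slc7a11 it stands at bases 65 to 58 upstream of the start and again, on the other strand, at bases 46 to 39, and in Slc38a1 at bases 56 to 49. GGCGCC was found in 2016 promoters (9.33%), and among the tested transporters in Slc6a11, at bases 18 to 13, and in Slc17a5, at bases 60 to 55. GTCTAGAC was found in 52 promoters (0.241%) and in no transporter promoter. The median GC content was 59.2% for the promoters of the tested transporters and 53.2% for all protein-coding promoters. A match describes the letters of the window and is not a measured binding site.

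The values are FPKM, fragments scaled by gene length and by library size, which are per length. The lengths implied by the values were, for example, 17236 bases for Slc38a1 and 5277 for Slc38a3. Levels, shares and ratios compared between genes depend on these lengths. Of the 59 members, 21 had a mean of at least 1 FPKM over the 9 libraries and 12 of these a mean of at least 10. A gene was tested when its mean was at least 0.1 FPKM, which 29 members (49.2%) and 20207 of all genes (36.3%) reached. Differences are log2 fold changes of FPKM + 0.1, which understate the change of genes near 0.1 FPKM, and a gene was called when its adjusted p (limma, Benjamini-Hochberg over all genes tested) was at most 0.05 and its fold change at least 2. In BMP4 against bFGF/BMP4, 6 transporters were higher and 4 lower, while 8.41% of all genes tested were called higher and 5.14% lower. In bFGF/BMP4 against bFGF/EGF, 6 were higher and 9 lower, against 16.5% and 14.1% of all genes. In BMP4 against bFGF/EGF, 8 were higher and 8 lower, against 21.3% and 15.4%. The median log2 fold changes of the tested members were 0.03, -0.05 and 0.09 in this order, beside 0.00, 0.06 and 0.10 for all genes tested. The median size of the change, without its sign, was 0.82, 1.01 and 1.13 on the log2 scale for the same 29 members and 0.37, 0.72 and 0.83 for all genes tested. At the adjusted p alone, without the fold, 7 transporters were higher and 8 lower in BMP4 against bFGF/BMP4. The share of all genes at this looser threshold is not given, so these counts have no background.

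**Figure D1:**
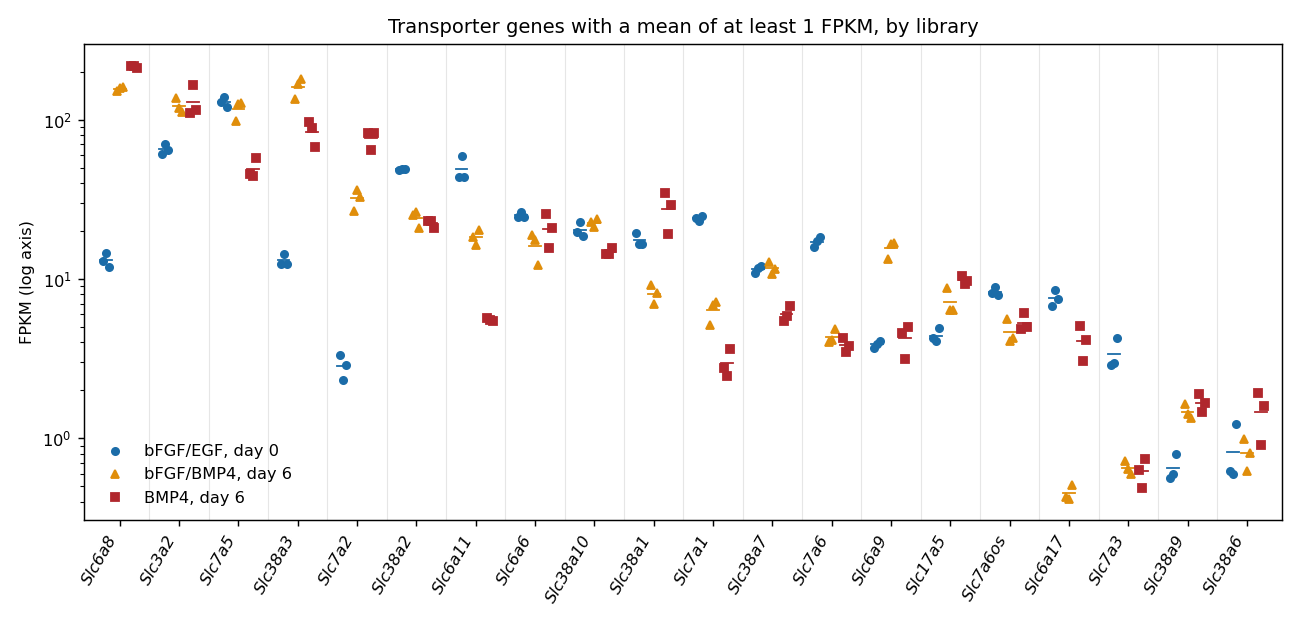
FPKM on a log axis for 20 transporter genes with a mean of at least 1 FPKM, ordered by mean, with 1 point per library (circles bFGF/EGF at day 0, triangles bFGF/BMP4 and squares BMP4 at day 6) and a short line at the group mean. Slc6a8, Slc38a3 and Slc7a2 are low in bFGF/EGF and high in both BMP4 groups, Slc7a1 and Slc6a11 step down across the groups, and Slc6a17 is under 0.51 FPKM in bFGF/BMP4 only.

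Taken by profile, which is a description made after the values were seen, 5 transporters were called higher than in bFGF/EGF in both groups that received BMP4 (Slc6a8, Slc7a2, Slc38a3, Slc38a9 and Slc7a7), and 12.7% of all genes tested had this profile. Another 6 were called lower in both (Slc38a2, Slc6a11, Slc7a1, Slc7a3, Slc7a6 and Slc7a11), a profile of 10.7% of all genes. Slc38a1, Slc6a15 and Slc6a17 were at their lowest in bFGF/BMP4 and called against each other group, which 1.91% of all genes were, and Slc6a9 was the 1 transporter called higher in bFGF/BMP4 than in both others, which 2.01% of all genes were. Tested members called in no comparison included Slc17a9, Slc38a10, Slc38a6, Slc38a7, Slc3a2, Slc6a6, Slc7a4 and Slc7a6os.

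Among the SLC6 carriers of GABA, taurine, betaine and creatine, the creatine carrier rose with both BMP4 media and the GABA carrier Slc6a11 fell step by step, while the taurine carrier Slc6a6 was called in no comparison. Slc6a8, the creatine carrier (chromosome X, 72716728 to 72726108), had the highest mean of all members, with 13.0, 14.6 and 11.8 FPKM in bFGF/EGF, 150.4, 159 and 161 in bFGF/BMP4, and 218, 218 and 212 in BMP4. The 3 groups did not overlap, and the step from bFGF/EGF to either BMP4 group was far larger than the step between the BMP4 groups. The log2 fold change was 3.57 for bFGF/BMP4 against bFGF/EGF (SE 0.11, adjusted p = 2.4e-08, limma) and 4.03 for BMP4 against bFGF/EGF (SE 0.11, adjusted p = 7.5e-09, limma). Between BMP4 and bFGF/BMP4 it was 0.46 (SE 0.11, adjusted p = 0.012, limma), under the fold threshold.

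Slc6a11 (GAT3, a GABA carrier known from astrocytes, chromosome 6, 114108200 to 114226913) was at 43.4, 59.2 and 43.6 FPKM in bFGF/EGF, 18.2, 16.4 and 20.3 in bFGF/BMP4, and 5.71, 5.54 and 5.46 in BMP4. Every library of a group lay below every library of the group before it. Slc6a11 fell by 1.40 on the log2 scale in bFGF/BMP4 against bFGF/EGF (SE 0.14, adjusted p = 2.9e-05, limma), by 3.09 in BMP4 against bFGF/EGF (SE 0.14, adjusted p = 1.4e-07, limma) and by 1.69 in BMP4 against bFGF/BMP4 (SE 0.14, adjusted p = 3.0e-05, limma). Slc6a6 (chromosome 6, 91660573 to 91736047) was at 24.4 to 26.3, 12.2 to 18.9 and 15.6 to 25.6 FPKM in the same order of groups, and the BMP4 libraries overlapped those of both other groups. Slc6a12 and Slc6a13, which carry betaine and GABA, reached at most 0.0425 FPKM.

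The glycine, proline and neutral amino acid carriers of the SLC6 family held both profiles that set bFGF/BMP4 apart. Slc6a17, a vesicular carrier of neutral amino acids known from neurons (chromosome 3, 107374859 to 107428439), was at 6.72, 8.50 and 7.44 FPKM in bFGF/EGF, 0.430, 0.418 and 0.509 in bFGF/BMP4, and 5.08, 3.07 and 4.11 in BMP4. The bFGF/BMP4 libraries were far below both other groups, and BMP4 lay below bFGF/EGF without overlap. The log2 fold change was -3.79 for bFGF/BMP4 against bFGF/EGF (SE 0.20, adjusted p = 5.0e-07, limma) and 2.90 for BMP4 against bFGF/BMP4 (SE 0.20, adjusted p = 1.1e-05, limma). BMP4 against bFGF/EGF gave -0.89 (adjusted p = 0.0038, limma), not called, and -1.06, called, without BMP4 replicate 1. Slc6a15, a carrier of proline and branched-chain amino acids (chromosome 10, 103202915 to 103255240), was at 0.584, 0.457 and 0.416 FPKM in bFGF/EGF, 0.0482, 0.0252 and 0.0877 in bFGF/BMP4, and 0.461, 0.812 and 0.532 in BMP4. It was again the bFGF/BMP4 libraries that were low, with 3 to 10 fragments each against 56 to 102 in the other libraries, and the other two groups overlapped. Slc6a15 fell by 1.94 in bFGF/BMP4 against bFGF/EGF (SE 0.33, adjusted p = 0.00076, limma) and was higher in BMP4 than in bFGF/BMP4 by 2.18 (SE 0.33, adjusted p = 0.00098, limma) on the log2 scale.

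Slc6a9, the glycine carrier GlyT1 that is known from glia (chromosome 4, 117691703 to 117732395), showed the opposite profile, with 3.68, 3.92 and 4.07 FPKM in bFGF/EGF, 13.3, 16.5 and 16.8 in bFGF/BMP4, and 4.55, 3.16 and 4.98 in BMP4. The bFGF/BMP4 libraries were high and the other two groups overlapped. Slc6a9 rose by 1.97 on the log2 scale in bFGF/BMP4 against bFGF/EGF (SE 0.18, adjusted p = 1.4e-05, limma) and had a log2 fold change of -1.87 in BMP4 against bFGF/BMP4 (SE 0.18, adjusted p = 6.0e-05, limma). Its exons overlap those of Ccdc24 and B4galt2 on the other strand, and the strand setting of the counting was not stated, so reads of these genes cannot be told apart from its own. Exons of non-coding genes on the other strand also overlap those of Slc38a1, Slc38a2, Slc38a9, Slc38a10, Slc6a8, Slc6a15 and Slc7a1.

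Of the cationic amino acid carriers, which take up arginine, lysine and ornithine, Slc7a2 rose and Slc7a1 and Slc7a3 fell. Slc7a2 (CAT2, chromosome 8, 41315431 to 41375345) was at 3.32, 2.31 and 2.86 FPKM in bFGF/EGF, 26.8, 36.3 and 32.9 in bFGF/BMP4, and 82.4, 64.2 and 82.6 in BMP4. Each group lay above the one before it without overlap. The log2 fold change was 3.46 for bFGF/BMP4 against bFGF/EGF (SE 0.17, adjusted p = 3.1e-07, limma), 4.71 for BMP4 against bFGF/EGF (SE 0.17, adjusted p = 3.2e-08, limma), the highest of all transporters tested, and 1.25 for BMP4 against bFGF/BMP4 (SE 0.17, adjusted p = 0.00055, limma). Slc7a1 (CAT1, chromosome 5, 148264220 to 148336848) was at 24.2, 23.1 and 24.7 FPKM in bFGF/EGF, 5.17, 6.89 and 7.21 in bFGF/BMP4, and 2.78, 2.46 and 3.61 in BMP4. Its groups stepped down in the order in which those of Slc7a2 stepped up. Slc7a1 fell by 1.90 on the log2 scale in bFGF/BMP4 against bFGF/EGF (SE 0.17, adjusted p = 1.4e-05, limma) and by 3.00 in BMP4 against bFGF/EGF (SE 0.17, adjusted p = 5.3e-07, limma). Between BMP4 and bFGF/BMP4 it was -1.10 (adjusted p = 0.0012, limma), and -0.98 and no longer called without BMP4 replicate 2.

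Slc7a3 (CAT3, chromosome X, 100122745 to 100129631) was at 2.89, 2.96 and 4.25 FPKM in bFGF/EGF, 0.724, 0.637 and 0.593 in bFGF/BMP4, and 0.635, 0.489 and 0.737 in BMP4. Both BMP4 groups were low and overlapped each other. Slc7a3 fell by 2.19 in bFGF/BMP4 (SE 0.23, adjusted p = 4.0e-05, limma) and by 2.26 in BMP4 (SE 0.23, adjusted p = 2.2e-05, limma) against bFGF/EGF on the log2 scale. Slc7a4, a relative whose exons overlap those of P2rx6, stayed between 0.411 and 0.837 FPKM in every library and was called in no comparison. Within the summed level of Slc7a1, Slc7a2 and Slc7a3, Slc7a2 made up 9.35 ± 1.4% with bFGF/EGF, 81.9 ± 1.0% with bFGF/BMP4 and 95.5 ± 0.51% with BMP4 (SD, n = 3), and the sum itself was 30.2 ± 1.7, 39.1 ± 5.7 and 80.0 ± 11 FPKM. The groups overlapped in neither quantity. Each pair of groups gave an exact two-sided permutation p of 0.1, the smallest that 3 against 3 libraries allow.

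**Figure D2:**
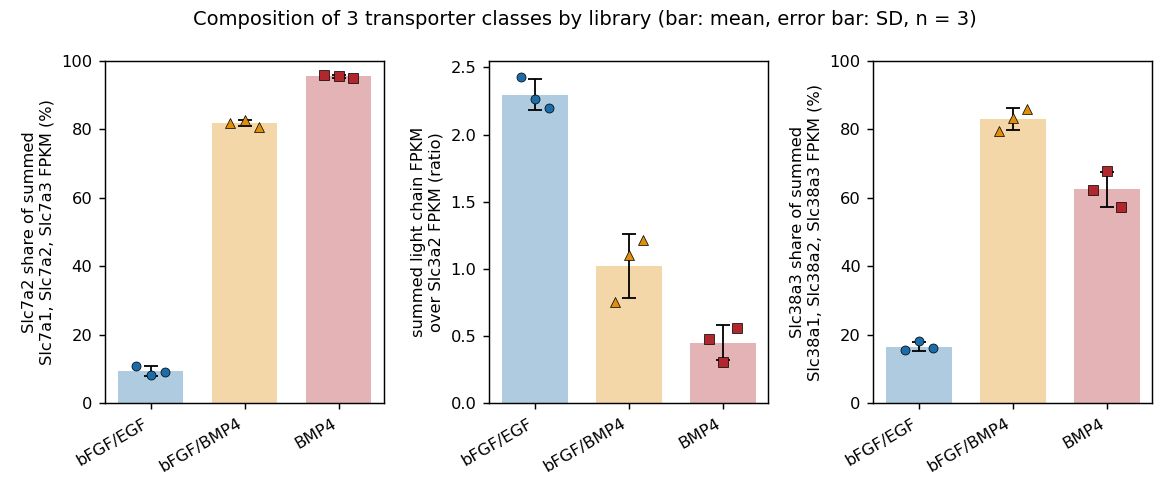
Composition of 3 transporter classes, with 1 point per library (bars: mean, error bars: SD, n = 3), as the percent share of Slc7a2 in the summed FPKM of Slc7a1, Slc7a2 and Slc7a3, the ratio of summed light chain FPKM to Slc3a2 FPKM, and the percent share of Slc38a3 in Slc38a1, Slc38a2 and Slc38a3. The Slc7a2 share steps from 9.35% to 81.9% and 95.5%, the light chain ratio steps down from 2.30 to 1.02 and 0.448, and the Slc38a3 share is highest in bFGF/BMP4.

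The heteromeric carriers pair a light chain with Slc3a2, the heavy chain 4F2hc (chromosome 19, 8684245 to 8701108), which was above bFGF/EGF in both BMP4 groups, under the fold threshold. Of its 6 tested light chains, 2 were called lower (Slc7a6 and Slc7a11) and 1 higher (Slc7a7) in bFGF/BMP4 than in bFGF/EGF. Of all genes tested, 14.1% were lower and 16.5% higher there. In BMP4 against bFGF/EGF, 4 were called lower (Slc7a5, Slc7a6, Slc7a10 and Slc7a11) and 2 higher (Slc7a7 and Slc7a8), beside 15.4% and 21.3% of all genes. The calls of Slc7a7 and Slc7a10 were lost there without single libraries, given with their values. Slc3a2 was at 61.0, 69.8 and 64.8 FPKM in bFGF/EGF, 137, 119 and 111 in bFGF/BMP4, and 109, 164 and 114 in BMP4. The BMP4 groups overlapped each other and lay above bFGF/EGF, with log2 fold changes of 0.91 (SE 0.17, adjusted p = 0.0013, limma) for bFGF/BMP4 and 0.96 (SE 0.17, adjusted p = 0.00072, limma) for BMP4, both under the fold threshold. The second of these passed it, at 1.02 to 1.07, without bFGF/EGF replicate 2, BMP4 replicate 1 or BMP4 replicate 3. The exons of Slc3a2 overlap those of the non-coding gene Snhg1 on the other strand. Slc7a5, the light chain LAT1 for large neutral amino acids (chromosome 8, 122607884 to 122634433), was at 129, 138 and 120.4 FPKM in bFGF/EGF, 97.4, 125 and 128 in bFGF/BMP4, and 45.2, 44.3 and 57.7 in BMP4. The bFGF/EGF and bFGF/BMP4 libraries overlapped, and those of BMP4 were low. Slc7a5 fell by 1.40 on the log2 scale in BMP4 against bFGF/EGF (SE 0.15, adjusted p = 3.0e-05, limma) and by 1.25 against bFGF/BMP4 (SE 0.15, adjusted p = 0.00026, limma), while bFGF/BMP4 against bFGF/EGF gave -0.15 (SE 0.15, adjusted p = 0.43, limma).

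Slc7a6, the light chain y+LAT2 that exchanges cationic for neutral amino acids (chromosome 8, 106895139 to 106925346), was at 15.8, 17.4 and 18.2 FPKM in bFGF/EGF, 4.03, 4.16 and 4.83 in bFGF/BMP4, and 4.29, 3.47 and 3.78 in BMP4. Both BMP4 groups were low and overlapped. Slc7a6 fell by 1.96 (SE 0.13, adjusted p = 2.0e-06, limma) and 2.13 (SE 0.13, adjusted p = 8.4e-07, limma) against bFGF/EGF on the log2 scale. Slc7a11, the light chain xCT that exchanges cystine for glutamate (chromosome 3, 49846975 to 50398070), was at 1.64, 1.04 and 2.89 FPKM in bFGF/EGF, 0.335, 0.412 and 0.410 in bFGF/BMP4, and 0.195, 0.151 and 0.179 in BMP4. The groups stepped down without overlap, and the bFGF/EGF libraries differed among themselves more than those of the other groups. Slc7a11 fell by 1.90 (SE 0.35, adjusted p = 0.0013, limma) in bFGF/BMP4 and by 2.73 (SE 0.35, adjusted p = 9.7e-05, limma) in BMP4 against bFGF/EGF, and BMP4 against bFGF/BMP4 gave -0.82 (SE 0.35, adjusted p = 0.13, limma).

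The remaining light chains had means under 1 FPKM over all libraries. Slc7a8, the light chain LAT2 (chromosome 14, 54959630 to 55019649), was at 0.529, 0.644 and 0.509 FPKM in bFGF/EGF, 0.560, 0.300 and 0.231 in bFGF/BMP4, and 2.08, 1.28 and 1.41 in BMP4. It was high in BMP4 and overlapped between the other groups, with log2 fold changes of 1.90 (SE 0.31, adjusted p = 0.0018, limma) against bFGF/BMP4 and 1.33 (SE 0.31, adjusted p = 0.0048, limma) against bFGF/EGF. Slc7a7, the light chain y+LAT1 (chromosome 14, 54606895 to 54655603), was at 0.319, 0.305 and 0.171 FPKM in bFGF/EGF, 0.901, 0.963 and 1.05 in bFGF/BMP4, and 0.502, 0.689 and 0.896 in BMP4. It was low in bFGF/EGF, with log2 fold changes of 1.58 for bFGF/BMP4 (SE 0.29, adjusted p = 0.0013, limma) and 1.12 for BMP4 (SE 0.29, adjusted p = 0.0081, limma), and the second was 0.92 and 0.94, no longer called, without bFGF/EGF replicate 3 or BMP4 replicate 3. Its exons overlap those of Oxa1l on the other strand. Slc7a10, the light chain Asc-1 for small neutral amino acids (chromosome 7, 34885666 to 34906995), had 9 to 20 fragments in bFGF/EGF, 10 to 16 in bFGF/BMP4 and 1 to 7 in BMP4, and its exons overlap those of Lrp3 on the other strand. Its log2 fold change in BMP4 against bFGF/EGF was -1.30 (SE 0.42, adjusted p = 0.023, limma), a call that was lost without bFGF/EGF replicate 2 (-1.03), BMP4 replicate 1 (-1.01) or BMP4 replicate 2 (-1.28). Against bFGF/BMP4 it was -1.25 (adjusted p = 0.061, limma), not called, and -1.57 (adjusted p = 0.033, limma), called, without BMP4 replicate 3. With all libraries kept, it was -1.93 (adjusted p = 0.034, limma-voom on rebuilt fragments), also called.

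The summed FPKM of the light chains that are known to pair with Slc3a2 (Slc7a5, Slc7a6, Slc7a7, Slc7a8, Slc7a10 and Slc7a11) was 149.5 ± 8.0 with bFGF/EGF, 123 ± 17 with bFGF/BMP4 and 55.5 ± 7.6 with BMP4, and its ratio to Slc3a2 was 2.30 ± 0.12, 1.02 ± 0.24 and 0.448 ± 0.13 (SD, n = 3). The groups did not overlap in the sum or in the ratio, each with an exact two-sided permutation p of 0.1 for each pair, again the smallest possible. Slc7a5 made up 86.4 ± 1.7%, 94.7 ± 0.57% and 88.3 ± 1.8% of the sum. From bFGF/EGF to bFGF/BMP4 the sum was lower without overlap. The mean of Slc7a5 went from 129.3 to 116.8 FPKM, with overlapping libraries, and that of Slc7a6 from 17.1 to 4.34 FPKM. These sums and shares, like those of the cationic and glutamine carriers, were chosen after the values were seen.

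**Figure D3:**
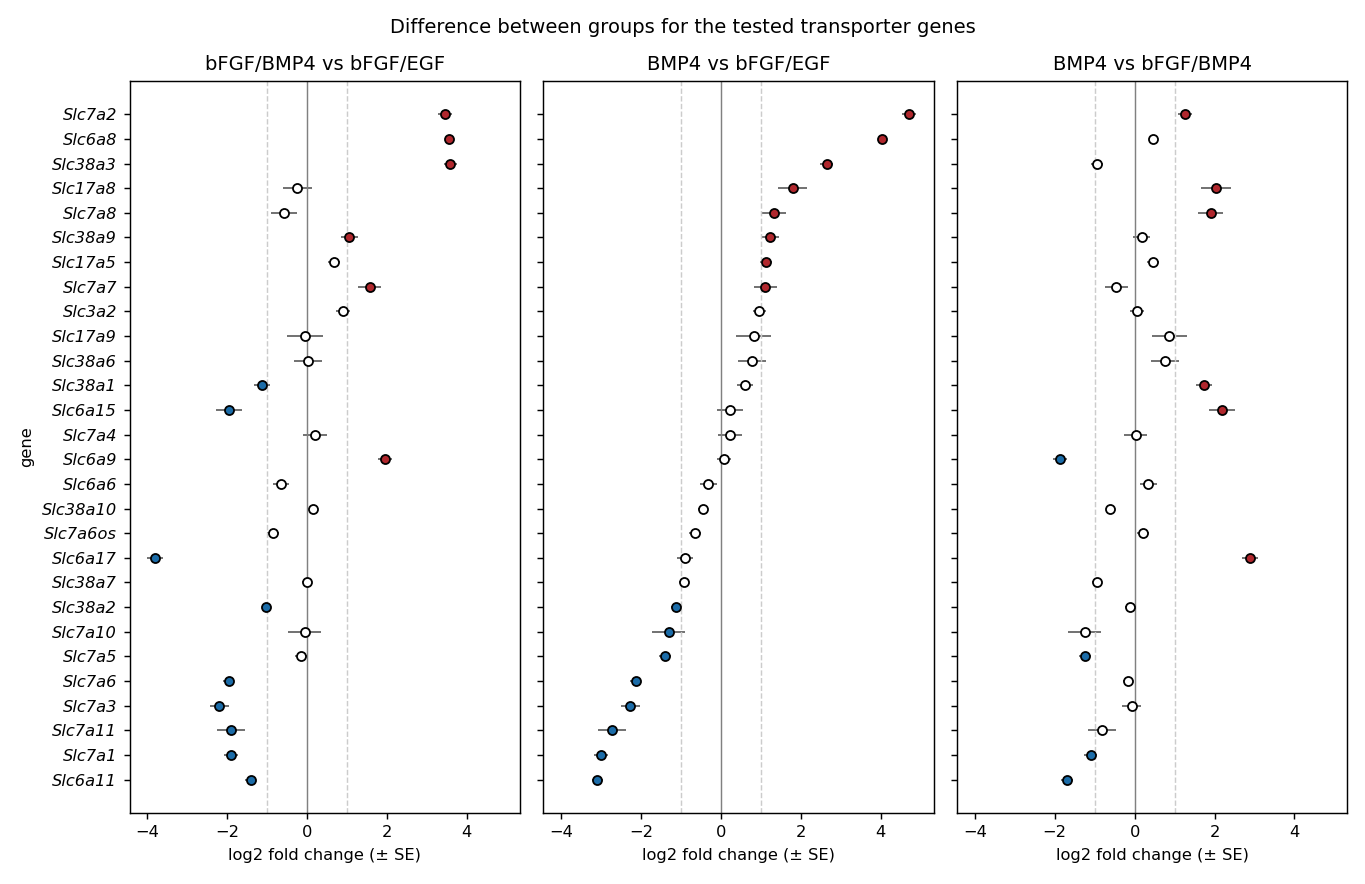
Log2 fold changes (point) with their standard error (line) for 28 of the 29 tested members in the 3 comparisons, ordered by BMP4 against bFGF/EGF, with filled points for calls (red higher, blue lower) and dashed lines at a fold change of 2. In bFGF/BMP4 against bFGF/EGF 6 points are filled red and 9 blue, in BMP4 against bFGF/EGF 8 and 8, and in BMP4 against bFGF/BMP4 6 and 4, and Slc6a17, Slc6a9, Slc38a1 and Slc6a15 lie on opposite sides of 0 in the left and right panels.

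Among the glutamine and neutral amino acid carriers, Slc38a3 rose in both BMP4 groups, Slc38a2 fell in both, and Slc38a1 was lowest in bFGF/BMP4. Slc38a3 (SNAT3, a glial glutamine carrier that can also release glutamine, chromosome 9, 107527815 to 107547018) was at 12.4, 14.4 and 12.4 FPKM in bFGF/EGF, 135, 166 and 179 in bFGF/BMP4, and 95.9, 88.1 and 67.0 in BMP4. The groups did not overlap and bFGF/BMP4 was the highest. The log2 fold change was 3.59 for bFGF/BMP4 (SE 0.16, adjusted p = 1.8e-07, limma) and 2.65 for BMP4 (SE 0.16, adjusted p = 7.7e-07, limma) against bFGF/EGF. Between BMP4 and bFGF/BMP4 it was -0.94 (adjusted p = 0.0021, limma), under the fold threshold, and -1.06 or -1.05, called, without bFGF/BMP4 replicate 1 or BMP4 replicate 1, and -1.02, called, on the TPM scale, which sets the FPKM sum of each library equal. Slc38a1 (SNAT1, known from neurons, chromosome 15, 96469298 to 96541851) was at 19.4, 16.5 and 16.7 FPKM in bFGF/EGF, 9.14, 6.91 and 8.11 in bFGF/BMP4, and 34.6, 19.0 and 29.0 in BMP4. The bFGF/BMP4 libraries were the lowest, and BMP4 replicate 2 fell within the range of bFGF/EGF. Slc38a1 fell by 1.12 on the log2 scale in bFGF/BMP4 against bFGF/EGF (SE 0.21, adjusted p = 0.0013, limma) and was higher by 1.73 in BMP4 than in bFGF/BMP4 (SE 0.21, adjusted p = 0.00024, limma).

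Slc38a2 (SNAT2, known for its induction when amino acids are scarce, chromosome 15, 96585266 to 96597894) lies beside Slc38a1 and was at 48.3, 49.2 and 48.7 FPKM in bFGF/EGF, 25.3, 26.5 and 20.9 in bFGF/BMP4, and 23.2, 22.9 and 20.7 in BMP4. Both BMP4 groups were low and overlapped. Slc38a2 fell by 1.13 on the log2 scale in BMP4 (SE 0.11, adjusted p = 1.9e-05, limma) and by 1.01 in bFGF/BMP4 (SE 0.11, adjusted p = 5.6e-05, limma) against bFGF/EGF, and the second was -0.91, under the fold threshold, without bFGF/BMP4 replicate 3. Slc38a4, the third gene of this stretch of chromosome 15, reached at most 2 fragments in a library. Slc38a3 made up 16.5 ± 1.3% of the summed FPKM of Slc38a1, Slc38a2 and Slc38a3 with bFGF/EGF, 83.0 ± 3.2% with bFGF/BMP4 and 62.5 ± 5.2% with BMP4 (SD, n = 3), and the sum was 79.4 ± 1.3, 192 ± 20 and 134 ± 19 FPKM. Neither the share nor the sum overlapped between groups, with an exact two-sided permutation p of 0.1 for each pair, the smallest possible.

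The other tested members of the family were Slc38a9, Slc38a7, Slc38a10 and Slc38a6. Slc38a9, the lysosomal arginine sensor of the mTORC1 pathway (chromosome 13, 112797159 to 112875283), was at 0.563 to 0.80 FPKM in bFGF/EGF, 1.64, 1.42 and 1.33 in bFGF/BMP4, and 1.90, 1.46 and 1.66 in BMP4. It was low in bFGF/EGF and overlapped between the BMP4 groups. The log2 fold change was 1.24 for BMP4 (SE 0.21, adjusted p = 0.00064, limma) and 1.07 for bFGF/BMP4 (SE 0.21, adjusted p = 0.0020, limma) against bFGF/EGF, and the second was 0.98 and 0.99, under the fold threshold, without bFGF/EGF replicate 1 or bFGF/BMP4 replicate 1. Slc38a7, a lysosomal glutamine exporter (chromosome 8, 96562548 to 96580189), was at 10.9 to 12.1 FPKM in bFGF/EGF, 10.7 to 12.8 in bFGF/BMP4 and 5.48 to 6.73 in BMP4. Its log2 fold change of -0.94 against bFGF/BMP4 (SE 0.12, adjusted p = 0.00041, limma) and of -0.93 against bFGF/EGF was under the fold threshold, and both were -1.02, called, on the TPM scale and -1.02 and -1.01, called, without BMP4 replicate 3, while the first was also called, just past the fold threshold, without bFGF/BMP4 replicate 2. Slc38a10 (chromosome 11, 119994770 to 120042189) was at 18.6 to 22.7, 21.2 to 23.6 and 14.3 to 15.6 FPKM in the same order. Slc38a6 (chromosome 12, 73333535 to 73400823), whose exons overlap those of Trmt5, was at 0.593 to 1.24, 0.620 to 0.984 and 0.912 to 1.91 FPKM with overlap between the groups, and BMP4 against bFGF/EGF gave 0.79 (adjusted p = 0.080, limma), which became 1.10 and 1.08, called, without bFGF/EGF replicate 3 or BMP4 replicate 2.

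Of the vesicular and lysosomal anion carriers, Slc17a5 and Slc17a8 were called. Slc17a5, the lysosomal sialic acid exporter sialin (chromosome 9, 78443766 to 78495343), was at 4.25, 4.06 and 4.93 FPKM in bFGF/EGF, 8.79, 6.36 and 6.35 in bFGF/BMP4, and 10.4, 9.35 and 9.68 in BMP4. The groups stepped up without overlap, with a log2 fold change of 1.14 for BMP4 against bFGF/EGF (SE 0.15, adjusted p = 0.00014, limma) and of 0.68 for bFGF/BMP4 against bFGF/EGF (SE 0.15, adjusted p = 0.0044, limma), the latter not called. Slc17a8, the vesicular glutamate carrier VGLUT3 (chromosome 10, 89409882 to 89457326), had 3 fragments in each bFGF/EGF library, 1, 3 and 0 in bFGF/BMP4, and 21, 30 and 39 in BMP4. All low libraries were at or under the detection floor of 3 fragments, so BMP4 (0.389 ± 0.11 FPKM, SD, n = 3) was at least 9.40-fold higher than a floor of 3 fragments per library in bFGF/BMP4 and at least 10.3-fold higher than the same floor in bFGF/EGF. The adjusted p was 0.0030 and 0.0021 in these comparisons (limma). Slc17a8 passed the filter of 0.1 FPKM only through its BMP4 libraries, with means of 0.0182 FPKM in bFGF/BMP4 and 0.0378 in bFGF/EGF. Its calls, counted among those higher in BMP4, are therefore not independent of the filter. The floor covers counting error only. Slc17a9, the vesicular nucleotide carrier, had 1 to 19 fragments and was called in no comparison.

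Slc7a6os (chromosome 8, 106927068 to 106937618), beside Slc7a6 and transcribed from the other strand, was at 7.95 to 8.90 FPKM in bFGF/EGF, 4.06 to 5.58 in bFGF/BMP4 and 4.83 to 6.07 in BMP4, and its log2 fold changes of -0.85 and -0.65 against bFGF/EGF were under the fold threshold. Its exons overlap those of Prmt7 on the other strand.

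A further 30 members were too low to test, of which Slc17a1, Slc17a2, Slc17a4, Slc6a2, Slc6a14 and Slc7a13 had no fragment in any library, which allows a level of up to 3 fragments per library. The other 24 reached at most 0.286 FPKM, and 8 of them had more than 3 fragments in some library. Slc6a19, a carrier of neutral amino acids known from kidney and intestine, had 20, 19 and 10 fragments in BMP4 and at most 2 in any other library. The serotonin carrier Slc6a4 had 13, 21 and 7 fragments in BMP4 and at most 5 elsewhere. For both genes the BMP4 libraries were above all others, and neither passed the filter. With no filter on low values both were called higher in BMP4 than in bFGF/BMP4 (adjusted p = 0.0031 for Slc6a19 and 0.026 for Slc6a4, limma) and than in bFGF/EGF (adjusted p = 0.0013 and 0.022, limma). The highest counts of the rest of the 8 were 9 fragments for the vesicular glutamate carrier Slc17a7 and 6 for the vesicular GABA carrier Slc32a1, both in BMP4, 8 for the dopamine carrier Slc6a3, also in BMP4, 8 for the glycine carrier Slc6a5 in bFGF/BMP4, 12 for Slc6a20b in bFGF/BMP4 and 30 for Slc7a14 in BMP4. Slc6a20b is a close copy of Slc6a20a and its exons overlap those of Sacm1l on the other strand, so its fragments are uncertain. At or under 3 fragments in every library were Slc17a3, Slc17a6, Slc38a4, Slc38a5, Slc38a8, Slc38a11, Slc6a7, Slc6a12, Slc6a13, Slc6a16, Slc6a18, Slc6a20a, Slc6a21, Slc7a9, Slc7a12 and Slc7a15. The 3 monoamine carriers together reached at most 0.429 FPKM, in a BMP4 library, and the 4 type I phosphate carriers of SLC17 at most 0.0182 FPKM.

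Other genes of amino acid and transmitter handling were taken as lists, chosen with earlier results of these data known and described by counts only. Of all genes tested, 8.41% were called higher and 5.14% lower in BMP4 against bFGF/BMP4. These shares were 16.5% and 14.1% in bFGF/BMP4 against bFGF/EGF, and 21.3% and 15.4% in BMP4 against bFGF/EGF. The median log2 fold changes of all genes tested were 0.00, 0.06 and 0.10 in this order. Of the 6 tested SLC1 carriers of glutamate and neutral amino acids, 2 were called lower in BMP4 than in bFGF/BMP4 and none higher, and 1 was higher and 2 were lower in each comparison with bFGF/EGF. Slc1a2, the main glutamate carrier of astrocytes, was at 14.3, 10.1 and 13.5 FPKM in bFGF/EGF, 195, 172 and 159 in bFGF/BMP4, and 67.2, 52.4 and 77.0 in BMP4, and Slc1a3, the other glial glutamate carrier, was at 66.4 to 82.7, 118 to 152 and 108 to 123 FPKM. Slc1a2, like Slc38a3, was highest in bFGF/BMP4, and its log2 fold change of -1.43 in BMP4 against bFGF/BMP4 (SE 0.18, adjusted p = 0.00031, limma) and that of Slc1a1, -1.45 (SE 0.23, adjusted p = 0.0012, limma), were the calls of this list. The median log2 fold changes of the list in BMP4 against bFGF/BMP4, bFGF/BMP4 against bFGF/EGF and BMP4 against bFGF/EGF were -0.43, 0.32 and -0.65. Of 10 tested further amino acid carriers of the plasma membrane and lysosome, 2 were higher and none lower in BMP4 than in bFGF/BMP4, with 2 higher and 2 lower in each other comparison and medians of 0.03, 0.44 and 0.69. Slc36a2, a proton-coupled carrier of glycine and proline, was listed at 0 in bFGF/EGF, at 2.42 to 2.52 FPKM in bFGF/BMP4 and at 19.9 to 32.8 in BMP4, a log2 fold change between the BMP4 groups of 3.20 (SE 0.21, adjusted p = 8.8e-06, limma), and Slc43a2, a carrier of large neutral amino acids, rose there by 1.31 (SE 0.17, adjusted p = 0.00039, limma). Of 3 tested vesicular carriers of the SLC18 family, none was called between the BMP4 groups, 2 were higher in bFGF/BMP4 and 1 in BMP4 than in bFGF/EGF, with medians of -0.61, 1.62 and 0.64, and the log2 fold changes between the BMP4 groups were -0.98 for Slc18b1 and -0.61 for Slc18a3.

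Of the 10 enzymes of glutamate, glutamine and GABA, all tested, 1 was higher and 1 lower in BMP4 than in bFGF/BMP4, 5 were higher and 1 lower in bFGF/BMP4 than in bFGF/EGF, and 4 were higher and none lower in BMP4 than in bFGF/EGF, with medians of -0.02, 0.47 and 0.27. Glul, the enzyme that makes glutamine in astrocytes, was at 43.6 to 57.3 FPKM in bFGF/EGF, 383 to 729 in bFGF/BMP4 and 314 to 490 in BMP4, the last 2 overlapping. Gad1 and Gad2, which make GABA, moved oppositely between the BMP4 groups, with 2.09 for Gad1 (SE 0.21, adjusted p = 9.8e-05, limma) and -1.22 for Gad2 (SE 0.29, adjusted p = 0.013, limma) on the log2 scale. Gad1, like Slc6a17 and Slc6a15, was low in bFGF/BMP4 alone, at 0.561 to 0.666 FPKM against 3.52 to 4.63 in bFGF/EGF and 2.26 to 3.82 in BMP4. Of 18 tested enzymes of glycine, serine, arginine and creatine, 4 were higher and 2 lower in BMP4 than in bFGF/BMP4, and 2 were higher and 5 lower in each comparison with bFGF/EGF, with medians of 0.04, 0.11 and -0.35. Ass1, which makes the arginine precursor argininosuccinate, was at 0.985 to 1.75, 9.18 to 11.9 and 105 to 141 FPKM in the order of groups used above, each group above the one before it as for the arginine carrier Slc7a2, and rose by 3.48 between the BMP4 groups (SE 0.20, adjusted p = 4.9e-06, limma). Gatm, the first enzyme of creatine synthesis, was at 56.6 to 59.8, 62.8 to 96.8 and 7.84 to 19.5 FPKM, with a log2 fold change of -2.57 in BMP4 against bFGF/BMP4 (SE 0.29, adjusted p = 0.00018, limma).

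**Figure D4:**
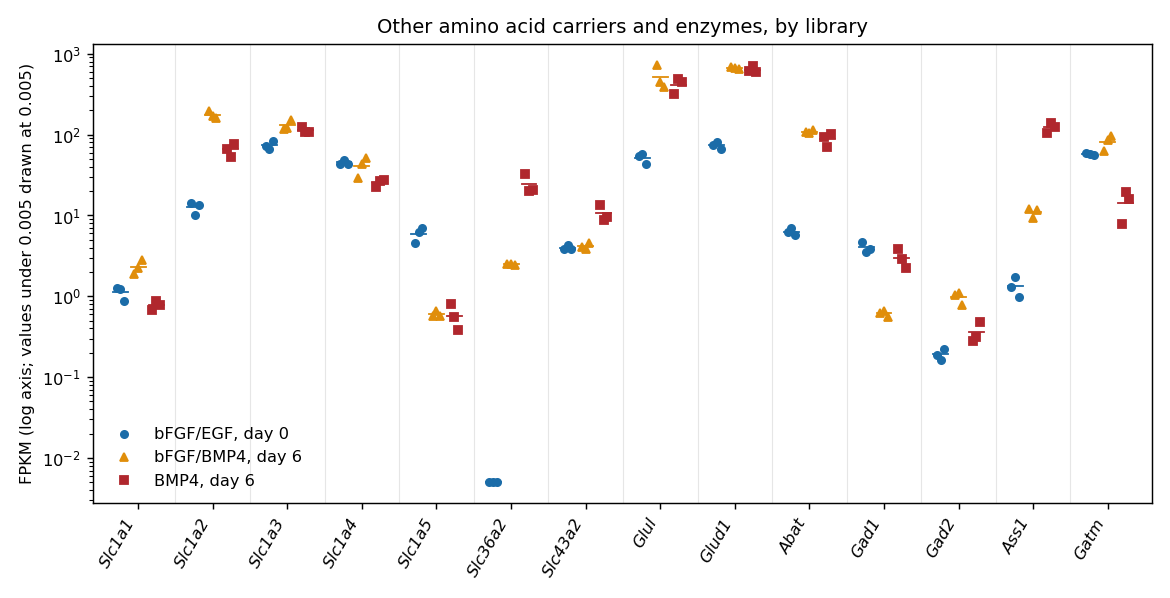
FPKM on a log axis for 14 genes of the other lists, with 1 point per library (circles bFGF/EGF, triangles bFGF/BMP4, squares BMP4) and a short line at the group mean, values under 0.005 being drawn at 0.005. Slc1a2, Glul, Glud1 and Abat are low in bFGF/EGF, Gad1 is low in bFGF/BMP4 alone, and Slc36a2 and Ass1 step up from bFGF/EGF through bFGF/BMP4 to BMP4.

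The libraries held 15892854 to 17419822 fragments on genes, as rebuilt from the FPKM values, and the correlation of log2 values over genes was 0.950 to 0.964 within groups and at most 0.915 between groups. Of 5 NSC markers, Sox2 was at 121 to 202 FPKM in every library and called in no comparison, while the other 4 (Nes, Vim, Prom1 and Fabp7) were called lower in bFGF/BMP4 than in bFGF/EGF. Nes was at 145 to 157 FPKM in bFGF/EGF, 2.96 to 3.94 in bFGF/BMP4 and 10.7 to 20.7 in BMP4, and was the 1 marker called lower in BMP4 than in bFGF/EGF. Prom1, at 0.505 to 0.795, 0.121 to 0.191 and 1.25 to 3.34 FPKM, was called higher there, and Vim was at 620 to 763, 150.2 to 187 and 774 to 1029 FPKM. In BMP4 against bFGF/BMP4, 3 of the 5 were called higher (Nes, Vim and Prom1) and none lower. Of all genes tested, 8.41% were called higher and 5.14% lower in that comparison. In bFGF/BMP4 against bFGF/EGF 14.1% were lower, and in BMP4 against bFGF/EGF 21.3% were higher and 15.4% lower. Markers of other cell types moved with the groups. The summed level of 7 astrocyte markers was 165 to 233 FPKM in bFGF/EGF, 516 to 577 in bFGF/BMP4 and 3614 to 4506 in BMP4, where Gfap alone was at 2181 to 3038 FPKM, and 5 of the 7 were called higher and 1 lower in BMP4 than in bFGF/BMP4. Gfap, Aqp4, Gja1 and Aldoc had the order of the sum by group mean. Aldh1l1 was highest in bFGF/EGF, with means of 135, 24.2 and 58.1 FPKM, and was called lower in both comparisons with bFGF/EGF. S100b (0.624, 55.1 and 40.1 FPKM) and Gjb6 (0, 2.96 and 0.238 FPKM) were highest in bFGF/BMP4. The 8 markers of neurons and neuroblasts summed to 82.7 to 102, 54.2 to 60.1 and 150.4 to 221 FPKM, lowest in bFGF/BMP4. Tubb3 made up most of the BMP4 sum, with a mean of 145 FPKM there. By group mean, Tubb3, Dcx, Snap25, Stmn2 and Elavl3 had the order of the sum. Map2 and Syt1 were highest in bFGF/EGF, and Rbfox3 was highest in bFGF/BMP4 and lowest in BMP4. Of the 7 tested, 3 were higher and 1 lower in BMP4 than in bFGF/BMP4, with the neuroblast marker Dcx at most 1.99 FPKM. The 5 OPC markers summed to 1563 to 2263, 1313 to 1796 and 216 to 423 FPKM with Pdgfra at most 0.852, the 5 oligodendrocyte markers to at most 0.920, 6.71 and 26.4, the 6 microglia markers to at most 0.876, 0.540 and 1.75, and the 7 vascular and mural markers to 8.76 to 16.8, 1.55 to 2.77 and 14.2 to 26.3 FPKM with Cldn5 at 0 in every library. The part of these markers in the transporter differences was not tested, and in bulk RNA fewer cells of a type and less RNA per cell cannot be told apart.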

How the data were processed

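Total RNA of 9 libraries from adult mouse NSCs was sequenced as paired ends. Per the labels and methods, the authors cleaned reads with fastp 0.19.7, aligned them to mm39 with HISAT2 2.0.5 and used featureCounts 1.5.0-p3. The authors deposited FPKM values, and how FPKM were computed, the annotation release and the strand setting are not given in the sources used here. FPKM values were whole fragment numbers times a gene and a library constant, from which fragments (15892854 to 17419822 per library) were rebuilt for all 30860 genes above 0 (tolerance 0.02). The library constant was 0.919 to 1.07 times these totals, and the sources used here do not say why it differs from them.

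Since FPKM are not counts, the count model of the study was replaced by limma 3.58.1 (R 4.3.3) with a trend, fitted to log2(FPKM + 0.1) of the 20207 genes with a mean of at least 0.1 FPKM, with all libraries in 1 fit without a block, and with Benjamini-Hochberg adjustment over all genes. Calls needed an adjusted p of at most 0.05 together with a 2-fold change, as in the study. The fit was tested on simulated data. The members and lists were chosen with earlier results of these data known, and the marker lists follow an earlier analysis of them. For 1 member, included in the counts, the values are not reported here. Described were members with a mean of at least 1 FPKM or a call, in each other list the 2 genes with the largest change between BMP4 and bFGF/BMP4, and Slc1a2, Slc1a3, Glul, Gad1 and Gad2. Gamt was added after its values were seen. Of 55414 Ensembl identifiers, 54749 were found in GENCODE vM39, and 290 rows had other identifiers.

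The fits were repeated with a pseudocount of 1, with no filter, with a filter at a mean of 1 FPKM, on the TPM scale, with median-ratio scaling, by limma-voom on rebuilt fragments, with a replicate block, with only the 2 groups compared, with no fold threshold, and without each library. Summaries and plots were made in Python 3.11.15 (numpy 2.4.6, pandas 2.3.3, matplotlib 3.10.9).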

Additional observations from a re-analysis of the deposited data

How the results depend on the processing

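The counts of transporters called stayed within 1.5 times their value under most alternatives. With a pseudocount of 1, which shrinks the changes of low genes, 3 in place of 6 were higher in BMP4 than in bFGF/BMP4 and 3 in place of 8 were higher in BMP4 than in bFGF/EGF. Over all genes tested, calls in either direction also went down in these comparisons, from 2738 to 1449 and from 7400 to 4364. The pseudocount of 1 ended 15 calls of transporters, those of Slc17a8, Slc6a15, Slc7a7, Slc7a8 and Slc38a9 in every comparison, of Slc7a1 in BMP4 against bFGF/BMP4, of Slc38a2 and Slc7a11 in bFGF/BMP4 against bFGF/EGF, and of Slc17a5 and Slc7a10 in BMP4 against bFGF/EGF. Among genes with a mean of at least 1 FPKM, which leaves fewer genes tested, the counts of transporters higher in BMP4 were 3 and 5. Of all genes, 1800 and 4989 were then called in either direction. Without the fold threshold, which only adds calls, 8 in place of 4 were lower in BMP4 than in bFGF/BMP4 and 13 in place of 8 were lower in BMP4 than in bFGF/EGF. The matching share of all genes is not given. When each library was left out, the counts for BMP4 against bFGF/BMP4 were 6 higher in every case and 3 to 6 lower, those for bFGF/BMP4 against bFGF/EGF 5 to 6 and 8 to 9, and those for BMP4 against bFGF/EGF 8 to 9 and 7 to 9.

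The sign of the log2 fold change turned only in comparisons that were not called. With each library left out in turn, Slc38a6 in bFGF/BMP4 against bFGF/EGF ranged from -0.14 to 0.34, Slc38a7 there from -0.060 to 0.070, Slc7a10 there from -0.28 to 0.22, Slc3a2 in BMP4 against bFGF/BMP4 from -0.13 to 0.17, Slc7a3 there from -0.19 to 0.066, and Slc6a9 in BMP4 against bFGF/EGF from -0.035 to 0.28. Slc38a7 in bFGF/BMP4 against bFGF/EGF was -0.0021 on the TPM scale and -0.019 with median-ratio scaling, and Slc3a2 in BMP4 against bFGF/BMP4 was -0.015 on the TPM scale. The cause was not tested.

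The deviations of same-numbered libraries correlated between -0.084 and 0.125. These values show no strong effect shared by replicate number, but they cannot show whether such libraries came from the same isolation. A replicate block left all counts as they were, 6 and 4, 6 and 9, and 8 and 8. With no filter on low values, 8 members were higher and 4 lower in BMP4 than in bFGF/BMP4, 6 and 9 in bFGF/BMP4 than in bFGF/EGF, and 10 and 8 in BMP4 than in bFGF/EGF, and the members added were Slc6a19 and Slc6a4. The 30 members below the filter had at most 30 fragments in a library, which limits their comparison.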
